A study of Mus musculus with 15 samples.

Results

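Bulk RNA of mouse lung was sequenced in 15 libraries, and 3 of them carried transcripts typical of the thymus. These 3 were selected on a measured value: the rule took every library in which Rag1, which encodes part of the recombinase that opens receptor genes for rearrangement, exceeded 1000 counts per 1000000 counts of the library (CPM), which left 12 libraries, each below 1 CPM. Just inside the cutoff lay the library silica_DMSO 6 at 2541 CPM, and the highest value outside it was 0.224 CPM. All tissue was labelled as lung of C57BL/J mice, taken 30 days after dosing. The control group (4 libraries) had received physiological saline, the DMSO group (4 libraries) the solvent dimethyl sulfoxide, the silica group (3 libraries) a silica suspension, and the silica_DMSO group (4 libraries) the suspension as nose drops with DMSO on the following day. The 3 libraries selected were DMSO 7, silica_DMSO 4 and silica_DMSO 6, so that the 12 others comprised 4 control, 3 DMSO, 3 silica and 2 silica_DMSO libraries. The labels give no sex or age and do not say whether a library is 1 animal. The extraction protocol in the labels speaks of retinas, but the 12 photoreceptor genes of a retina list summed to at most 3.06 CPM in any library of the 3 and 1.37 CPM in any of the 12, and none passed the filter on low values.

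The thymus is the organ above the heart in which T cells are made. Precursors rearrange the genes of the T cell receptor there with the RAG1 and RAG2 enzyme, pass a stage at which they carry both CD4 and CD8, and are tested for what their receptor binds on cortical and then on medullary epithelium. The lung, by contrast, is built of gas-exchange epithelium (alveolar type 1 cells), surfactant-making alveolar type 2 cells, airway club and ciliated cells, a dense capillary endothelium, fibroblasts and resident macrophages.

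Because Rag1 chose the libraries, every difference between the 3 and the 12 is given as a description, without a test. Values of the 3 are in the order DMSO 7, silica_DMSO 4, silica_DMSO 6. Values of the 12 are their lowest, median and highest. Library totals lay between 17434653 and 20829923 counts in all 15 libraries and overlapped between the sets. Counts in genes longer than 3000 bases made up 44.1%, 38.6% and 34.4% of the 3 libraries, inside the 11.5% to 44.9% of the 12, among which 5 libraries lay below 30% and 7 above.

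A gene was counted as higher when its lowest value in the 3 libraries exceeded the highest of the 12 and the mean of log2(CPM + 0.5) differed by at least 2, and as lower in the mirrored case. Of 16486 genes with at least 1 CPM in 3 libraries, 1250 were higher, which is 7.58%, and 765 were lower, which is 4.64%. A gene near 0 in the 12 passes this filter only through the 3 libraries, so its count as higher was nearly fixed beforehand. How many of the 1250 are such genes was not determined. The median difference of all these genes was 0.22. The higher genes took 12.4% to 13.7% of the counts of the 3 libraries and 0.722% to 2.77% of the 12, and the lower genes 0.467% to 3.11% and 9.15% to 26.2%. How the 2 directions divide depended on the scaling: 62.0% of the counted genes were higher in CPM, 42.6% (964 higher, 1299 lower) after TMM scaling, 47.4% (1057 and 1172) with DESeq2 size factors and 84.4% (1698 and 314) in TPM (transcript levels scaled for gene length), where the median of all genes moved to -0.08, 0.02 and 0.67. The number of lower genes depended on DMSO 7: without it 1600 were lower and 1072 higher, of 16055 genes past the filter. It also depended on the libraries poor in long genes: against the 7 others alone 1858 genes were lower and 1007 higher, and against the 5 poor libraries 884 and 2416.

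**Figure D1:**
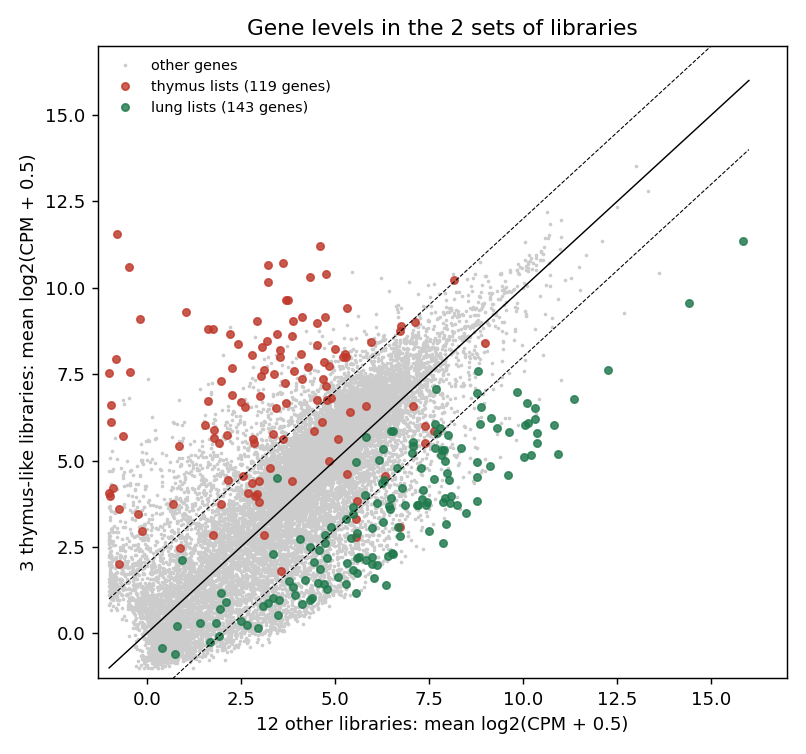
Mean log2(CPM + 0.5) of 16486 genes in the 12 other libraries (x) and in the 3 thymus-like libraries (y). The solid line marks equal levels and the dashed lines a difference of 2. Most of the 119 thymus list genes (red) lie above the upper dashed line, and most of the 143 lung list genes (green) below the lower one.

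The recombination genes separated the sets most widely, as the rule made certain for Rag1. Rag1 (ENSMUSG00000061311) was at 3876, 2743 and 2541 CPM, against 0, 0.0790 and 0.224 CPM in the 12, where all its counts together came to 19. Rag2, the partner of RAG1, was at 211, 142 and 213 CPM and had no count in any of the 12. Measured against a floor of 3 counts over the 12 libraries together, Rag2 was at least 14437-fold higher. Dntt, which encodes the terminal transferase that adds bases at the junctions of receptor segments, was at 1312, 1420.2 and 2068 CPM, against 0, 0.241 and 0.433 CPM. Among the 3 libraries Rag1 was highest in DMSO 7 and Dntt in silica_DMSO 6. No library of the 12 came near them, and all 3 genes passed the filter on low values only through the 3 libraries selected. The median difference of the 3 recombination genes was 11.09. As the log2 ratio of mean CPM, with nothing added and Rag2 at its floor, the median was 13.82.

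**Figure D2:**
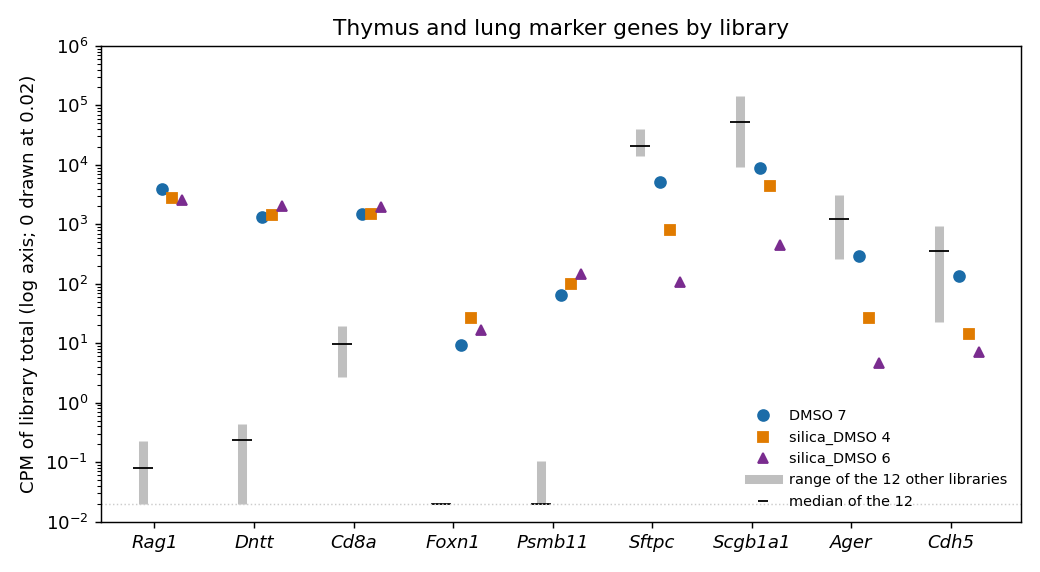
CPM of library total (log axis, 0 drawn at 0.02) of 5 thymus and 4 lung genes in each of the 3 thymus-like libraries (coloured points), with the range (grey bar) and median (black dash) of the 12 other libraries. Rag1 lies between 2541 and 3876 CPM in the 3, and Sftpc steps down from 5090 to 108 CPM.

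The start regions of a gene of each side are shown because the genes of each side differed together and the letters can be searched for elements of the factors named below. RefSeq lists them on GRCm38.p6, another build than the one the submitters' notes name (mm8). The 250 bases before the start are printed, and capitals mark CACCTG (an E box, the element of the E proteins E2A and HEB), GACGC (the core element of FOXN1), CTCAAG (a core element of NKX2-1) or TATAAA, on either strand. Rag1 lies at chr2:101649533-101649782 on the minus strand and holds an E box read as CAGGTG. Psmb11, a proteasome subunit of cortical thymic epithelium, lies at chr14:54625060-54625309 on the plus strand, where an E box directly precedes the first of its 2 GACGC matches.
Rag1: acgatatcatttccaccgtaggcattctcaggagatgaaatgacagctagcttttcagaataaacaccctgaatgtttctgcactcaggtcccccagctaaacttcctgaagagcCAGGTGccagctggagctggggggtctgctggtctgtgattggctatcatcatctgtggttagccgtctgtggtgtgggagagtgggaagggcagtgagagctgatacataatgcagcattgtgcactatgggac
Psmb11: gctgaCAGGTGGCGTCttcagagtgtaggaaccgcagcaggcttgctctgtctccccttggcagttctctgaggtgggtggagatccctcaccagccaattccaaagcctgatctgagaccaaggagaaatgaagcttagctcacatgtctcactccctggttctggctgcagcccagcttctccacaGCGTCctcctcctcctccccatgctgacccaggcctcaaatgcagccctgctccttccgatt
On the lung side, Sftpa1, which encodes a surfactant protein, lies at chr14:41131538-41131787 on the plus strand, with CTCAAG and TATAAA. Nkx2-1, the transcription factor that specifies lung epithelium, lies at chr12:56536909-56537158 on the minus strand, with CACCTG.
Sftpa1: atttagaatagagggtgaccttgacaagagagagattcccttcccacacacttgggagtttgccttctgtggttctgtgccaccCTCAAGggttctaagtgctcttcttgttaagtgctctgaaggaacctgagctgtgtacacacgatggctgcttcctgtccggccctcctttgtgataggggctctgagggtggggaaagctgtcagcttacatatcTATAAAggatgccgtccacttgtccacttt
Nkx2-1: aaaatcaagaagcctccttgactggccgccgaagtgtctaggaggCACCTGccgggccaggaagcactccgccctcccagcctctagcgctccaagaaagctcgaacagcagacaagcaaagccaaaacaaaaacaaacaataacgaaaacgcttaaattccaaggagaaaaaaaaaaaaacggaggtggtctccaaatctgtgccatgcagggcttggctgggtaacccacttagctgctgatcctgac
Over the 27025 genes with a listed region, CACCTG stood in 17.1% of these windows, GACGC in 22.6%, CTCAAG in 13.6% and TATAAA in 13.0%. Of the higher genes 70.0% and of the lower genes 72.7% had a listed region, which is under the 80% set for such a comparison, so the shares in higher and lower genes are not compared. A match is a stretch of letters in this window and says nothing of binding.

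Over all 9 thymus lists, 83 of 119 genes past the filter were higher and 2 were lower. After TMM scaling, in TPM and against either set of lung libraries 80 to 91 were higher (73 of 106 without DMSO 7, where fewer genes pass the filter). Rag1, Rag2, Dntt, Ptcra, Arpp21, Foxn1, Psmb11, Aire and Fezf2, among others, were below 1 CPM in each of the 12. They passed the filter only through the 3 libraries, so these counts are no independent support for a thymus origin. Genes of the stage that carries both CD4 and CD8 were the next group. Of the 14 on the list, 11 were higher, none was lower, and their median difference was 5.64, against 0.22 over all genes. Cd8a, a chain of the CD8 coreceptor, was at 1479.6, 1487 and 1919 CPM, against 2.69, 9.67 and 19.7 CPM in the 12. Cd4 was at 772, 814 and 837 CPM, against 0.923, 14.6 and 46.2 CPM in the 12. Each of the 3 libraries was above each of the 12 for both coreceptors. Satb1, a chromatin organiser of thymocytes, was at 2014, 1573 and 1470.1 CPM, against 2.20, 14.0 and 30.8 CPM in the 12. Arpp21 was at 292, 209 and 246 CPM and at most 0.280 CPM in the 12, a difference of 8.78. Themis, a signalling protein needed for thymocyte selection, was at 589.6, 311 and 353 CPM and was highest in DMSO 7. For these 3 genes the sets did not overlap. The 3 genes of the list that were not counted were Cd24a, at 372, 312 and 333 CPM inside the range of the 12, and Ets2 and Cd1d1, which lay above all 12 but with differences of 1.90 and 2.0 that, before rounding, stayed under 2.

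Genes of the stages before this one did not follow as a group. Of 12, 2 were higher and 1 was lower, with a median difference of -0.27 that turned to 0.12 in TPM, where none was lower (2 after TMM scaling). Ptcra, the pre-T cell receptor alpha chain, was at 17.2, 13.1 and 26.2 CPM and at most 0.291 CPM in the 12. Il2ra, the interleukin-2 receptor chain CD25, was at 60.4, 47.1 and 53.5 CPM, against 1.41, 4.18 and 11 CPM in the 12. For both, the 3 libraries lay above the 12. The gene that was lower was Hes1, a Notch target that other tissues also use, at 13.3, 8.46 and 7.29 CPM, against 27.0, 48.4 and 80.1 CPM in the 12. Erg and Kit, which endothelium and mast cells also express, differed by -2.77 and -1.76 and overlapped with the 12. The receptors Notch1 and Notch3 lay inside the range of the 12, with differences of 0.74 and 0.16.

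Of 12 transcription factors of the T lineage, 7 were higher and none lower (median difference 2.82). Tcf7, which starts the T cell program, was at 2138, 2315 and 2649 CPM, against 5.44, 32.5 and 53.4 CPM in the 12. Bcl11b, which fixes T cell identity, was at 451, 351 and 223 CPM, highest in DMSO 7 and in each library above the 1.18, 5.46 and 14.2 CPM of the 12. Lef1 was at 261, 358 and 322 CPM, and Ikzf1, a lymphoid zinc finger factor, was at 687, 731 and 629 CPM, against a highest value of 112 CPM in the 12. Gata3, also on the list, was higher, at 41.2, 49.1 and 43.9 CPM, against 0.664, 7.43 and 19.0 CPM in the 12. Zbtb7b and Runx3, factors of the later choice between the CD4 and CD8 lineages, were not counted, with differences of 0.56 and 1.98. Zbtb7b, of the CD4 lineage, was at 33.8, 74.1 and 46.9 CPM, against 8.35, 38.6 and 58.8 CPM in the 12. Runx3, of the CD8 lineage, was at 16.1, 36.3 and 20.3 CPM, against 0.728, 6.54 and 19.8 CPM in the 12, so that DMSO 7 overlapped with the 12.

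All 18 genes of the T cell receptor complex and its signalling were higher, with differences from 2.79 to 5.97 and a median of 4.70. The constant regions of the receptor's beta chain were highest per length: Trbc2 reached 2617, 3271 and 4412 TPM against a median of 35.1 TPM in the 12. These 2 constant genes are near-identical copies, so the split of reads between Trbc1 and Trbc2 is uncertain. Trac, the constant region of the alpha chain, was at 222, 332 and 338 CPM, against 2.77, 11.6 and 22 CPM in the 12. Lck, the kinase bound to CD4 and CD8, was at 1019, 1372 and 1757 CPM, against 11.9, 29.7 and 38.6 CPM in the 12. Cd3e, a CD3 chain, was at 318, 439.5 and 478 CPM, against 0.680, 12.9 and 23.7 CPM in the 12. In every one of the 18 the 3 libraries were above the 12. In 16 of them silica_DMSO 6 was above DMSO 7, the exceptions being Cd28 and Fyb. The delta chain's constant gene, Trdc, which no list held and which was picked after its values were seen, was at 105, 99.8 and 126 CPM, against 0.874, 2.80 and 4.8 CPM in the 12.

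Variable segments of the receptor had higher sums in the 3 libraries. Of 35 beta chain (Trbv) segments in the table, 26, 23 and 23 had counts in the 3 libraries, with 6262, 11218 and 10723 counts in all, or 352, 582 and 575 CPM, against 1.58, 7.85 and 13.8 CPM in the 12. In each of the 12, between 12 and 20 Trbv segments had counts, from at most 270 counts in all. The most used segment was Trbv3 in all 3, with 10.5%, 10.1% and 9.59% of the Trbv counts. Trbv3 also led in control 1, control 2, control 7 and silica_DMSO 2. Of 130 alpha chain (Trav) segments, 99, 104 and 100 had counts, at 82.1, 145 and 110.1 CPM in sum against at most 7.34 CPM in the 12. Between 1 and 46 Trav segments had counts in each of the 12. The number of segments seen rises with the counts and is not compared. How many segments were counted as higher is not given: of the 20 Trbv and 32 Trav segments past the filter on low values, 1 and 0 passed it within the 12 alone. Segments with near-identical copies share reads, so single segments are uncertain, while the sums are not touched by how reads were split within a family.

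Markers of selected, mature and regulatory T cells were mixed: 6 of 13 were higher and none lower (median difference 1.59). Ccr9, the receptor for the thymic chemokine CCL25, was at 691, 549.8 and 673 CPM, against 0.243, 1.82 and 2.76 CPM in the 12. Ccr7, which guides selected thymocytes to the medulla, was at 57.9, 177 and 117 CPM, against 12.2, 22.5 and 37.2 CPM in the 12, lowest in DMSO 7. For Ccr9 the sets did not overlap. Cd69, a mark of recent receptor signalling, was at 51.6, 59.5 and 50.8 CPM, against 3.89, 11.1 and 18.7 CPM in the 12. The exit receptor S1pr1 and its regulator Klf2 lay low in the range of the 12 or below it, with S1pr1 at 98.9, 58.1 and 32.6 CPM, against 33.1, 243 and 372 CPM in the 12. Foxp3, of regulatory T cells, was at 2.98, 8.56 and 4.93 CPM, against 0.243, 1.34 and 4.26 CPM in the 12, so that DMSO 7 overlapped with the 12.

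Genes of thymic epithelium were higher in the 3 as well. Of 12 cortical genes, 9 were higher and none lower, with a median difference of 4.36. The median log2 ratio of mean CPM, with nothing added and Foxn1 at its floor, was 5.92. Foxn1 and Psmb11 passed the filter only through the 3 libraries, while 7 cortical genes had a median of at least 1 CPM in the 12. As a percentage of that median, these 7 were at a median of 388%, 470% and 449%, against 55.9% to 137% in the 12. Foxn1, the factor that makes thymic epithelium, was at 9.17, 27.0 and 16.6 CPM and had no count in the 12, which makes it at least 1349-fold higher. Psmb11, whose start region is printed above, was at 63.9, 100.4 and 145 CPM and at most 0.105 CPM in the 12. Prss16, a serine protease of the cortex that takes part in presenting peptides, was at 367, 624 and 716 CPM, against 0.0971, 0.370 and 1.06 CPM in the 12. Ccl25, the chemokine that draws precursors in, was at 307, 451 and 635 CPM, against 1.46, 2.55 and 5.04 CPM in the 12. Foxn1 was highest in silica_DMSO 4, while Psmb11, Prss16 and Ccl25 were highest in silica_DMSO 6, all 3 of them lowest in DMSO 7. Among the genes not counted, Ly75 lay above 11 of the 12 without reaching the difference of 2, and Dll4, the Notch ligand that endothelium also makes, was at 27.3, 11.7 and 7.82 CPM, against 8.33, 52.9 and 107 CPM in the 12.

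Of 13 medullary genes past the filter, 6 were higher and 1 was lower (median difference 2.03). Aire and Fezf2 passed it only through the 3 libraries, while 7 medullary genes had a median of at least 1 CPM in the 12. As a percentage of that median, these 7 were at a median of 147%, 340% and 265%, against 69.9% to 155% in the 12. DMSO 7 thus lay inside that range. Aire, the factor that lets the medulla display genes of other organs, was at 7.37, 21.2 and 9.97 CPM and at most 0.728 CPM in the 12. Fezf2, which serves the same end, was at 7.60, 26.8 and 17.1 CPM and at most 0.0560 CPM. Krt5, a keratin of the medulla and of other stratified epithelia, was at 75.4, 402 and 217 CPM, against 0, 0.0502 and 1.26 CPM in the 12. All 3 were lowest in DMSO 7 and highest in silica_DMSO 4. Trpm5 and Avil, of the tuft cells that the medulla contains, were higher too, with Avil at 2.93, 13.4 and 9.70 CPM. Ccl21a, a chemokine of the medulla and of lung lymphatics, was at 184, 849 and 517 CPM, against 64.8, 102 and 246 CPM in the 12, so that DMSO 7 lay inside the range of the 12. The lower gene was Cldn3, a tight junction protein that lung epithelium also uses, at 19.7, 7.73 and 3.16 CPM, against 48.4, 102 and 191 CPM in the 12.

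Cell division genes were higher almost without exception. Of 22 on the list 21 were higher (20 after TMM scaling and with DESeq2 size factors), with a median difference of 3.76. Top2a, the DNA topoisomerase of dividing cells, was at 636, 553 and 514 CPM, against 5.25, 14.9 and 86.6 CPM in the 12. Mki67, the proliferation marker Ki-67, was at 521, 197 and 189 CPM, against 4.85, 14.3 and 133 CPM in the 12, highest in DMSO 7. Rrm2, of the enzyme that makes DNA building blocks, was at 251, 229 and 288 CPM, against 5.8, 9.71 and 29.2 CPM in the 12. The gene that was not counted was E2f1, at 19.7, 20.3 and 22.2 CPM, above all 12 with a difference of 1.43. All 6 Mcm genes of the list, the parts of the replicative helicase, were higher, among 7 of 10 genes of that name over the whole table.

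**Figure D3:**
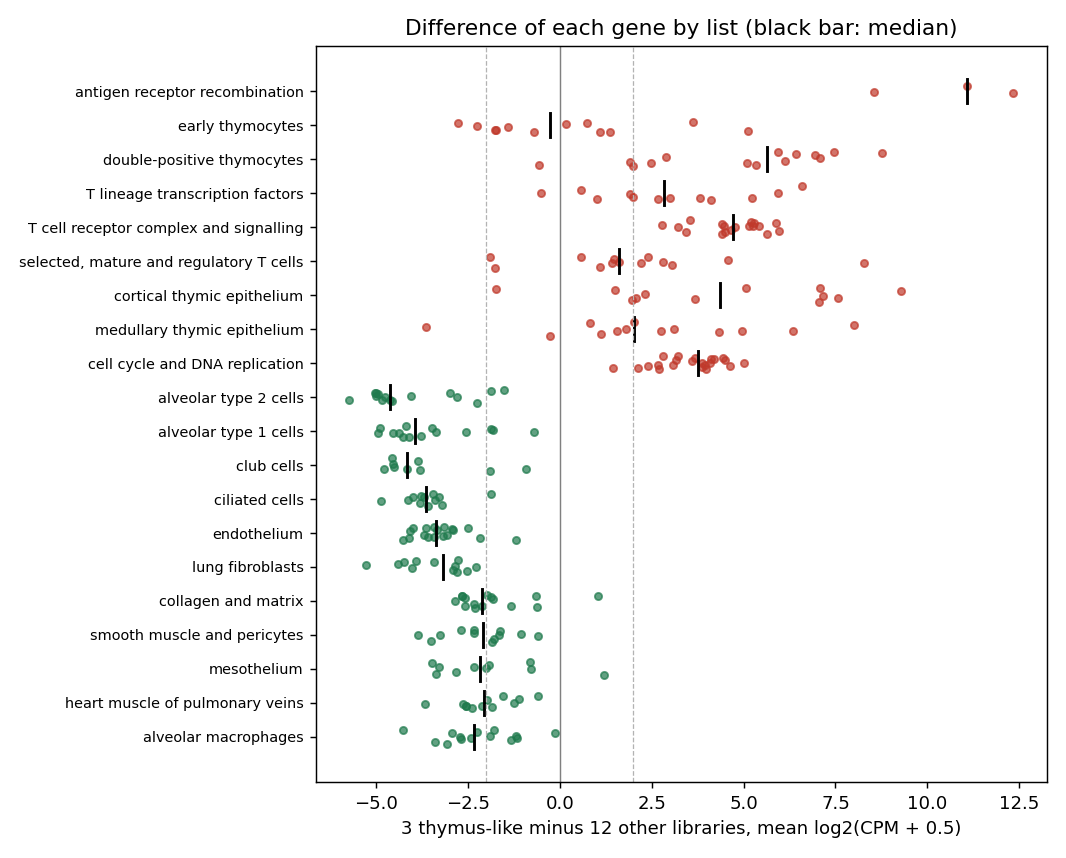
Difference in mean log2(CPM + 0.5), 3 thymus-like minus 12 other libraries, for each gene past the filter (points) in 9 thymus lists (red) and 11 lung lists (green). Black bars are list medians, which reach from 11.09 for recombination genes to -4.64 for alveolar type 2 cells. Dashed lines mark differences of 2.

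Few genes were counted in the lists of B cells, dendritic cells, monocytes, natural killer cells and plasma cells, which both organs house. Over all genes 7.58% were higher and 4.64% lower, so few counted genes in lists this short do not show that the sets were alike. None of 12 B cell genes was counted in either direction. The 9 dendritic cell genes had a median difference of 0.42, and none was counted. As a percentage of the median of the 12, they were at a median of 114%, 178% and 186%, against 39.9% to 130% in the 12. On this measure silica_DMSO 4 and silica_DMSO 6 lay above all 12. The 12 genes of monocytes and interstitial macrophages had a median of -0.21 that became 0.32 in TPM, with C1qa, a complement component, at 60.0, 146 and 149 CPM, against 41.2, 116 and 253 CPM in the 12. Of 9 natural killer cell genes 1, Klra8, was lower, and the median of 0.19 became -0.12 after TMM scaling. Plasma cell genes lay low but overlapped, with Jchain at 228, 243 and 240.0 CPM, against 86.8, 733 and 5013 CPM in the 12. In a bulk sample fewer cells of a type and less RNA in each cannot be told apart.

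Lung genes were lower, and by library in steps. Of 143 lung list genes past the filter, 52 were lower, none was higher, and the median difference was -2.92. The count of 52 became 104 without DMSO 7, 108 against the 7 libraries richer in long genes, 74 after TMM scaling and 26 in TPM, with none higher in any of these. Of 15 genes of alveolar type 2 cells 8 were lower (median difference -4.64). Sftpc, the surfactant protein C that marks these cells, was at 5089.6, 789 and 108 CPM, against 13855, 20963 and 39513 CPM in the 12. Sftpa1, with its start region above, was at 1051, 239 and 29.9 CPM, against 3760.2, 4760.3 and 6520.3 CPM in the 12. Nkx2-1 was at 23.9, 1.04 and 0 CPM, against 26.5, 106 and 127 CPM in the 12, so that silica_DMSO 6 had no count of it. Of the others, 4 more overlapped with just 1 of the 12: Sftpb, at 579, 37.5 and 1.71 CPM, against 494, 2306 and 3233 CPM in the 12, is an example, although its difference of -5.73 was larger than that of any gene counted on the list. In TPM, 4 of the 15 were lower and in TMM-scaled values 11.

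Of 14 alveolar type 1 genes 3 were lower (median difference -3.95; none in TPM, where the median was -2.94, and 6 after TMM scaling). Hopx, a regulator these cells express, was at 122, 14.6 and 5.95 CPM, against 211, 473 and 798 CPM in the 12. Aqp5, a water channel, was at 48.0, 4.93 and 1.29 CPM, against 119, 174 and 335 CPM in the 12. Ager, the receptor most typical of these cells, was at 296, 26.5 and 4.66 CPM, against 257, 1207 and 3079.9 CPM in the 12, where DMSO 7 overlapped with a library of the 12. Of 9 club cell genes 7 were lower (median difference -4.17; 4 in TPM). Scgb1a1, the secretoglobin of club cells, was at 8914, 4346 and 456 CPM, against 9268, 52489.9 and 142127 CPM in the 12. Cyp2f2, a cytochrome P450 of the same cells, was at 657, 157 and 12 CPM, against 669, 3324 and 6167 CPM in the 12. For Cyp2f2 and Scgb1a1, DMSO 7 came close to the lowest of the 12. Reg3g and Bpifa1 were the exceptions of this list, with Reg3g at 19.8, 64.5 and 49.2 CPM, against 6.33, 51.4 and 1725 CPM in the 12.

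Of 12 ciliated cell genes 8 were lower (median difference -3.65). Foxj1, the factor that starts motile cilia, was at 17.3, 9.50 and 2.84 CPM, against 40.5, 109 and 239 CPM in the 12. Tppp3, a microtubule protein of cilia, was at 82.3, 34.0 and 10.3 CPM, against 148, 396 and 1161 CPM in the 12. Every gene of the list stepped down from DMSO 7 over silica_DMSO 4 to silica_DMSO 6.

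In the vessel wall and stroma the median differences were smaller. Of 18 endothelial genes 5 were lower (median difference -3.38; 3 in TPM and 8 after TMM scaling). Cldn5, the tight junction claudin of endothelium, was at 55.6, 8.51 and 4.72 CPM, against 94.7, 246 and 574 CPM in the 12. Ramp2, a subunit of the adrenomedullin receptor, was at 68.8, 6.02 and 5.14 CPM, against 94.1, 312 and 808 CPM in the 12. Cdh5, the cadherin of endothelial junctions, was at 137, 14.5 and 7.07 CPM, against 22.6, 351 and 936 CPM in the 12, where DMSO 7 lay inside the range of the 12. For Cldn5 and Ramp2 the sets did not overlap. Pecam1, which leukocytes also carry, was at 301, 167 and 144 CPM, against 59.5, 647 and 1095 CPM in the 12. Of 12 fibroblast genes 3 were lower (median difference -3.18; 1 in TPM and 5 after TMM scaling), among them Tcf21, a factor of lung fibroblasts, at 20.4, 1.14 and 0.322 CPM, against 20.5, 65.9 and 143 CPM in the 12. Of 15 collagen and matrix genes 4 were lower, with a median difference of -2.12 (none in TPM, where the median was -1.36, and 9 after TMM scaling). Col3a1 was at 65.2, 51.1 and 17.6 CPM, against 100.4, 224 and 889.6 CPM in the 12. Dcn, the proteoglycan decorin, was at 144, 157 and 104 CPM, against 119, 217 and 309 CPM in the 12, and Lum, or lumican, lay above 11 of the 12 at 17.4, 30.1 and 20.7 CPM. Of 12 smooth muscle and pericyte genes 5 were lower (median difference -2.09; 2 in TPM and 6 after TMM scaling). Cox4i2, a subunit pericytes express, was at 6.36, 0.934 and 1.5 CPM, against 20.8, 36.9 and 156 CPM in the 12, while Myh11, the smooth muscle myosin, was at 38.2, 38.4 and 19.5 CPM, against 3.40, 62.5 and 158 CPM in the 12. Of the 10 mesothelial genes Krt19 alone was lower (3 genes after TMM scaling), and of 12 heart muscle genes, which mouse lung carries in its pulmonary veins, none was. Those 12 had a median difference of -2.06, with Myl7, an atrial myosin chain, at 11.8, 1.71 and 2.84 CPM, against 5.55, 29.4 and 117 CPM in the 12. The mesothelial genes had a median difference of -2.17. With 4.64% of all genes lower, the few counted in these 2 short lists do not show that the sets were alike.

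Among cells of blood and airspace, 8 of 14 alveolar macrophage genes were lower (median difference -2.34; 4 in TPM and 9 after TMM scaling). Chil3, a chitinase-like protein of these macrophages, was at 103, 34.5 and 6 CPM, against 377, 573 and 907 CPM in the 12. Siglecf, their surface lectin, was at 1.46, 0.519 and 0.322 CPM, against 3.32, 5.59 and 8.66 CPM in the 12. Both were lower in each of the 3 than in any of the 12. Lyz2, a lysozyme of all macrophages and of type 2 cells, which no list held, was at 2661, 1345 and 740.5 CPM, against 7165, 13153 and 20722 CPM in the 12. Of 12 neutrophil genes 5 were lower (1 in TPM and 7 after TMM scaling), with S100a8, a calcium-binding protein, at 13.2, 17.2 and 11.4 CPM, against 17.5, 86.3 and 296 CPM in the 12. The globin genes of red cells were not counted, and the 12 libraries themselves spread widely: Hbb-bs was at 1451, 108 and 25.6 CPM, against 266, 2379 and 9763 CPM in the 12. DMSO 7 lay inside that range, and the other two below its lowest value.

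The remaining lung signal was graded. For 127 lung list genes with a median of at least 10 CPM in the 12, each library's value was taken as a percentage of the median of the 12, and the median over the genes was its lung content. It was 28.0% in DMSO 7 (quartiles 22.5% and 37.7%), 7.44% in silica_DMSO 4 (3.66% and 16.7%) and 4.07% in silica_DMSO 6 (1.39% and 10.6%). The 12, each set against the other 11, ran from 41.8% to 131%. The lowest were silica_DMSO 5 at 41.8% and DMSO 4 at 45.4%, with 11.5% and 12.4% of counts in genes longer than 3000 bases. The highest was control 4, with 44.9% of counts in such genes. Lung content is thus a level of lung genes and not a share of lung tissue. The part of gene length in it was not tested. Of the 127 genes 106, or 83.5%, fell in the order DMSO 7, silica_DMSO 4, silica_DMSO 6. DMSO 7 was the highest of the 3 for 115 and silica_DMSO 6 the lowest for 113. The median ratio of DMSO 7 to silica_DMSO 4 was 3.34, and that of silica_DMSO 4 to silica_DMSO 6 was 1.98. Against the 5 other DMSO and silica_DMSO libraries alone the content of DMSO 7 came to 42.9%, and in TPM against all 12 to 39.3%.

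The percentages differed between lists (here over genes with a median of at least 1 CPM in the 12). In DMSO 7 they lay within 19.5% (ciliated cells) to 48.2% (heart muscle), with 26.8% for alveolar type 2 cells, 31.0% for type 1 cells and 31.7% for endothelium. In silica_DMSO 4 type 1 genes were at 2.98% and type 2 genes at 5.03%, but matrix genes at 28.0% and smooth muscle genes at 17.8%. In silica_DMSO 6 type 2 genes were at 0.628% and type 1 genes at 1.51%, against 11% for matrix, 12% for smooth muscle and 12.9% for alveolar macrophages. In both silica_DMSO libraries the alveolar lists thus had lower percentages than the lists of matrix and smooth muscle. Alveolar macrophage genes, at 17.9% in silica_DMSO 4 and 12.9% in silica_DMSO 6, stood near smooth muscle. Fibroblast genes (5.45% and 2.23%) and endothelial genes (4.39% and 2.35%) stood nearer the alveolar lists. The cause of these differences between lists was not tested. Taken over the epithelial lists alone the content of silica_DMSO 6 was 1.71%, and over genes of at least 100 CPM 2.37%. Red cell genes went from 67.2% in DMSO 7 to 5.17% and 1.07%. Mitochondrial transcripts were 3.31%, 1.16% and 0.801% of counts, against 1.73% to 4.64% in the 12, so silica_DMSO 4 and silica_DMSO 6 lay below all 12.

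**Figure D4:**
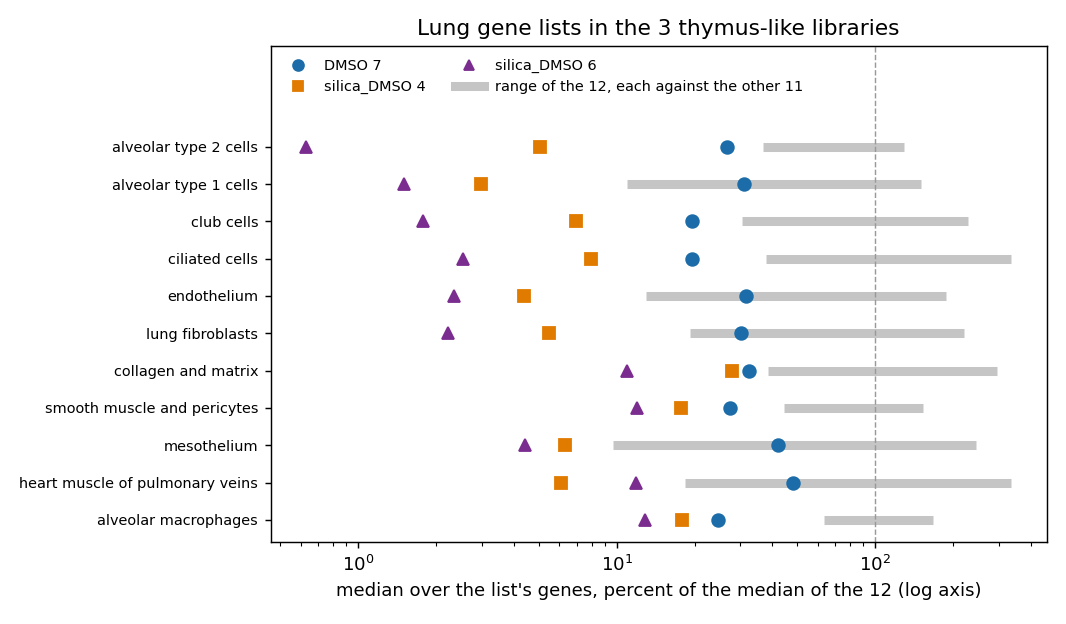
Median over the genes of each lung list (1 CPM or more as median of the 12) of the percentage of the median of the 12 libraries, on a log axis. Coloured points are the 3 thymus-like libraries and grey bars the range of the 12, each against the other 11. In 10 of 11 lists the points run DMSO 7, silica_DMSO 4, silica_DMSO 6 from right to left; heart muscle is the exception.

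Across all 16486 genes the 3 libraries resembled each other more than the lung. Pearson's r of log2(CPM + 0.5) was 0.983 between silica_DMSO 4 and silica_DMSO 6, 0.944 and 0.923 between DMSO 7 and these, and at most 0.852, 0.776 and 0.729 between each of the 3 and any of the 12. Pairs among the 12 ran from 0.750 to 0.991 with a median of 0.924. These are correlations across genes, which are not independent replicates. Genes seen in the 3 libraries alone pass the filter through them and bear on these values. The 3 were also chosen by Rag1, so the values are a description and no independent support for a separate origin.

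Within the 3, DMSO 7 lay further below the other two for the epithelial lists than for the thymocyte lists. Over the 1250 higher genes the median log2 ratio of DMSO 7 to the mean of the other two was -0.19. It was 0.10 for the 11 higher genes of the CD4 and CD8 stage and -0.15 for the 21 of cell division. For the 18 of the receptor complex it was -0.59, with 2 of 18 above 0. For the 9 of cortical epithelium it was -0.87 and for the 6 of medullary epithelium -1.76, none above 0. Between silica_DMSO 4 and silica_DMSO 6 the medullary genes had a median log2 ratio of 0.61 and the cortical genes -0.20. Gene length moved with this ratio: it was -0.02 over 581 higher genes longer than 3000 bases and -0.35 over 669 shorter ones, beside the 44.1% of counts in long genes in DMSO 7. The median lengths of the receptor, cortical and medullary genes were 1588, 3214 and 2313 bases. The part of length in the list values was not tested.

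**Figure D5:**
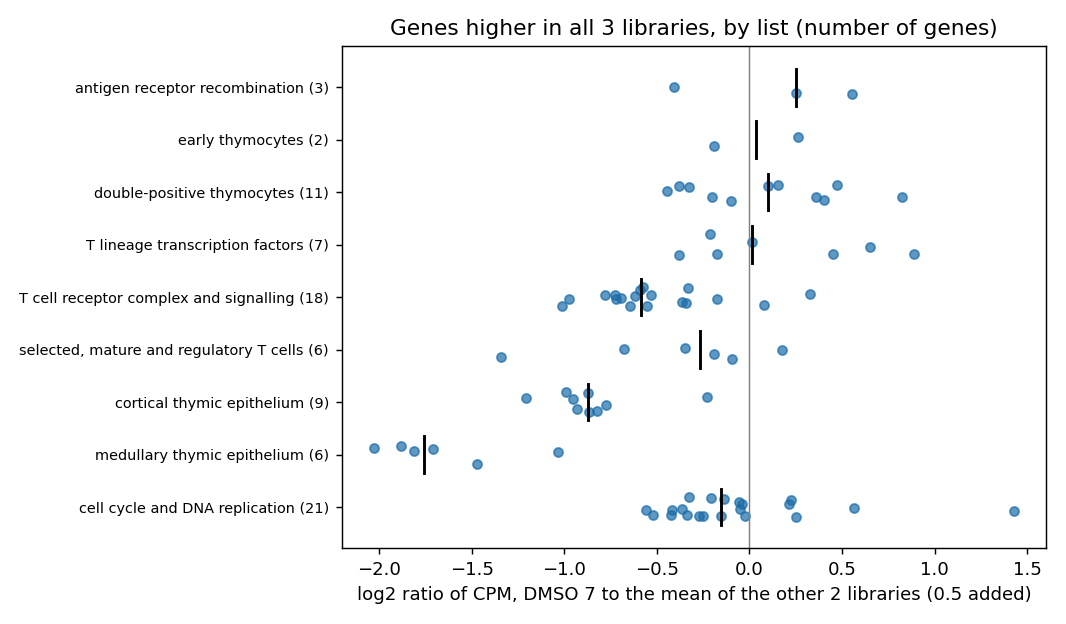
Log2 ratio of CPM in DMSO 7 to the mean of silica_DMSO 4 and silica_DMSO 6 (0.5 added to both) for genes higher in all 3 libraries, by thymus list, with the number of genes in brackets and black bars for medians. Recombination, coreceptor-stage and cell division genes lie around 0, and the 9 cortical and 6 medullary genes all lie below it.

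Single genes of fat, parathyroid and muscle were also looked at. Of 11 fat genes past the filter none was counted, and over the 10 with a median of at least 1 CPM in the 12 the median percentage of the 12 was 339%, 17% and 201%. Adipoq, the fat hormone adiponectin, was at 27.2, 1.14 and 16.2 CPM, against 1.46, 5.09 and 10.2 CPM in the 12. Ucp1, the heat-producing uncoupling protein of brown fat, was at 6.64, 0.156 and 36.1 CPM, against 0, 0.0257 and 1.01 CPM in the 12. Car3, a carbonic anhydrase abundant in fat, was at 153, 1.56 and 22.9 CPM, against 4.32, 23.9 and 39.5 CPM in the 12. DMSO 7 and silica_DMSO 6 thus exceeded the lung range for Adipoq and Ucp1, with silica_DMSO 4 below all 12 for Adipoq. Adipoq and Car3 were highest in DMSO 7 and Ucp1 in silica_DMSO 6. Pth, the parathyroid hormone, was at 0.731, 2.28 and 13.3 CPM and at most 0.0511 CPM in the 12, and did not pass the filter on low values. None of the 2 parathyroid and thyroid genes past the filter was counted. Of 6 skeletal muscle genes past the filter 1, Mylpf, a fast myosin chain, was higher, at 7.99, 10.1 and 13.4 CPM, against 0.596, 1.03 and 2.67 CPM in the 12. With 7.58% of all genes higher and 4.64% lower, the counts of lists this short say nothing about these tissues.

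Read by condition, 1 of 4 DMSO libraries and 2 of 4 silica_DMSO libraries were among the 3, and none of 4 control or 3 silica libraries. No effect of silica or DMSO can be read from the 3, since organ and condition cannot be told apart in them. Of 16 genes that an earlier look at these data linked to silica, 3 (Ctsk, Lcn2, Spp1) were lower and none was higher. That list was chosen on these libraries and is no independent evidence of a direction. Mmp12, a macrophage elastase, was at 10.3 and 4.07 CPM in silica_DMSO 4 and 6, against 121 and 127 CPM in the other silica_DMSO libraries. In DMSO 7 it was at 3.49 CPM, against 7.66 to 15.9 CPM in the other DMSO libraries. Spp1, or osteopontin, was at 16.1 and 5.57 CPM in silica_DMSO 4 and 6, against 279 and 379 CPM. Cxcl10, an interferon-induced chemokine, went the other way, at 14.0, 49.9 and 34.4 CPM, against 6.75 and 12.1 CPM in the other silica_DMSO libraries and 4.47 to 9.56 CPM in the other DMSO libraries. With the 3 libraries in their labelled groups, the common biological coefficient of variation of edgeR was 0.666, and it was 0.520 over the 12.

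By level per length (TPM), the libraries led with different transcripts. The highest in the median of the 12 was Scgb1a1 at 256682 TPM, followed by Sftpc at 36214 TPM. Scgb1a1 still led in DMSO 7, at 55996 TPM, and in silica_DMSO 4, at 22464 TPM, but was at 2580.2 TPM and not among the 10 highest in silica_DMSO 6. There the ribosomal protein gene Rps27 led, at 17704 TPM, and 7 of its 10 highest transcripts were ribosomal protein genes by name. Ribosomal protein genes took 5.37%, 9.12% and 10.5% of counts in the 3, inside the 2.79% to 23.2% of the 12, and none of 131 genes with such a symbol was counted in either direction. The shares over all genes were 7.58% higher and 4.64% lower. Because the 12 spread so widely here, overlap was likely, and the missing counts do not show equal levels.

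The largest differences were mostly in genes of these lists. Ranked by log2 difference among the counted genes averaging 10 CPM or more in the set where they were high, the 10 at the top were Rag1 (12.34), Dntt (11.09), Prss16 (9.29), Arpp21 (8.78), Rag2 (8.54), Ccr9 (8.27), Krt5 (8.0), Psmb11 (7.57), Cd8a (7.45) and Syt13 (7.40). Syt13, a synaptotagmin, stood on no list and was at 98.5, 93.6 and 134 CPM, against 0, 0.106 and 1.06 CPM in the 12. The 10 lowest of the counted genes, which leaves out genes that overlapped with the 12 such as Sftpb, were Cxcl15 (-4.99), Nkx2-1 (-4.95), Akr1c14 (-4.89), Sftpc (-4.86), Aldh1a1 (-4.79), Cyp2b10 (-4.79), Lgi3 (-4.69), Sftpa1 (-4.64), Cyp2f2 (-4.57) and Chil1 (-4.56). Cxcl15, the lung chemokine lungkine, was at 254, 20.4 and 2.14 CPM, against 393, 772 and 1189.5 CPM in the 12. Cyp2b10, a cytochrome P450, was at 67.7, 7.32 and 0.911 CPM, against 69.3, 309 and 414 CPM in the 12. All 10 of the lowest were highest of the 3 in DMSO 7 and lowest in silica_DMSO 6.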

How the data were processed

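Total RNA of 15 mouse lung samples had been sequenced with a TruSeq kit. Bowtie 0.12.2 and the build mm8 appear in the submitters' processing notes without a role. Expected counts and TPM per Ensembl gene were deposited by the authors in a table each, with gene lengths beside them. Expected counts, 7.52% to 10.0% of them not whole, were rounded here, and CPM of the library total was computed from them. The authors' TPM were used as deposited to compare different genes. The 8 columns of the authors' group means were left out.

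Members and lists were chosen with earlier results of these data known. The libraries were selected by Rag1, so no p-value is given. The text names members that define a cell type or stage in 34 lists (404 genes in the table), the 3 genes of largest difference of lists with counted genes, the 10 highest and 10 lowest counted genes of at least 10 CPM (without predicted genes, pseudogenes and segments), and the 10 transcripts of highest TPM. Trdc and Lyz2 were added after their values were seen. A few genes the rule names are not reported here. TMM factors and dispersions came from edgeR 4.0.16, size factors from DESeq2 1.42.0 (R 4.3.3), the rest from pandas 2.3.3. The floor of 3 counts covers counting error only.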

Additional observations from a re-analysis of the deposited data

Results flagged for a closer look

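In the labelled groups of 4 libraries the mean log2(CPM + 0.5) of each gene list, and the lung content, were searched for a library far from the other 3 of its group (by Dixon's criterion for the gap to the nearest library). Chance alone flags about 1 in 20 groups, and 11 of 102 group values were flagged. In the DMSO group 7 of the values belonged to DMSO 7, which the Rag1 rule had set apart beforehand, so these 7 are not to be read against the chance rate. Its recombination genes, a list that holds Rag1 and was thus fixed by the selection, had a mean of 10, against -0.74 to -0.65 in the other DMSO libraries. Its receptor complex genes had 8.19, against 3.83 to 4.06, and its cell division genes 6.94, against 3.11 to 3.32. Its cortical epithelium genes were at 6.04, against 1.76 to 2.14, and its medullary genes at 3.62, against 1.57 to 1.90. Its neutrophil genes were low at 2.33, against 3.90 to 4.13, as were its 4 lymph node stroma genes at 2.78, against 3.34 to 3.42.

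The other flagged values lay among the 12, apart from the thymus-like libraries. In the control group, control 1 had a mean of 1.82 for cortical epithelium genes, against 2.02 to 2.05, and control 2 had 5.35 for smooth muscle and pericyte genes, against 5.94 to 6.04. In the silica_DMSO group, silica_DMSO 5 had 2.09 for B cell genes, against 3.56 to 3.61 in a range that includes both thymus-like libraries, and silica_DMSO 2 had 3.68 for natural killer cell genes, against 2.61 to 2.65, again in a range that includes both thymus-like libraries.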

How the results depend on the processing

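The 1250 higher and 765 lower genes were counted again under 28 other settings or left-out libraries. The count of higher genes moved by over 1.5 times with a difference of at least 1 (3069 higher, 1361 lower), of at least 3 (510 and 303) or none (3855 and 1484), and against the 5 libraries with under 30% of counts in long genes (2416). The count of lower genes moved also with TMM scaling (1299), DESeq2 size factors (1172), TPM (314), a pseudocount of 2 (479) and against the 7 libraries richer in long genes (1858). Leaving out each library gave 974 to 1358 higher and 635 to 1600 lower genes, the last without DMSO 7. Without DMSO 7, silica_DMSO 4 or silica_DMSO 6, only 16055, 16057 and 16094 genes passed the filter. Genes seen in the 3 libraries alone then fail it, so part of the fall in higher genes comes from the filter. Of the 1250 and 765, 963 and 765 were among those counted after TMM scaling. Lung content kept its order under all settings tried. In DMSO 7 it moved to 42.9% against the other DMSO and silica_DMSO libraries and to 39.3% in TPM. In silica_DMSO 6 it moved to 2.37% over genes of at least 100 CPM and to 1.71% over epithelial lists. Leaving out each of the 12 gave 27.0% to 29.8% in DMSO 7, 7.19% to 7.77% in silica_DMSO 4 and 4.02% to 4.15% in silica_DMSO 6. For 113 named genes, no counted difference changed its sign in 3115 recomputed values, and 140 of these moved by more than the SD of the 12. A counted gene differs by at least 2 without overlap, so a change of sign was nearly excluded beforehand. The causes of the moved counts were not tested. The labels name no pairs of libraries, so no paired analysis was made.

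With a set of 3 libraries chosen by a readout, from 2 conditions, differences cannot be extended to other thymus or lung samples. Depth was even, and genes of a few counts have the least precise values.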

Other observations

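Some genes outside the lists also marked the 3 libraries, each picked after its values were seen. Krt17, a keratin of stratified epithelium, was at 40.9, 188 and 125 CPM, against 0, 0.0785 and 0.715 CPM in the 12. Chrna9, a nicotinic receptor subunit, was at 21.9, 23.9 and 34.7 CPM and at most 0.162 CPM in the 12. Cdca7, a gene of dividing cells, was at 344, 338 and 490.0 CPM, against 3.58, 7.69 and 10.7 CPM in the 12. Camk4, a calcium-dependent kinase, was at 101, 98.6 and 121 CPM, against 0.243, 1.40 and 2.58 CPM in the 12. Krt17 was lowest in DMSO 7, like the medullary keratins, whereas Camk4 was about level over the 3.

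Ptprc, the CD45 of all leukocytes, was at 1203, 869 and 698 CPM, against 50.9, 179 and 418 CPM in the 12. Cd74, the chaperone of antigen presentation, was at 962, 2488 and 1974 CPM, against 526, 1839.5 and 3686 CPM in the 12, so the sets overlapped. Trgc1, a gamma chain constant gene with near-identical copies, was at 26.3, 20.0 and 40.7 CPM, against 1.59, 2.20 and 5.72 CPM in the 12. Gapdh and Actb, often taken as reference genes, lay above all 12 in the 3 libraries, with differences of 1.33 and 0.95 in CPM, and Actb at 3016, 4542 and 4549 CPM, against 1171, 2173 and 2727 CPM in the 12. Of 31 Cyp genes past the filter 4 were lower and none was higher. Of 34 Kif genes, the kinesins, 12 were higher and 3 lower. Over all genes 7.58% were higher and 4.64% lower, so none higher of 31 and 3 lower of 34 are near those shares.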
